A study of Mus musculus with 12 samples.

Results

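The genes described are *Bach2*, *Bcl6* and *Prdm1*, which encode 3 transcriptional repressors of lymphocyte differentiation, in CD8+ progenitor T cells (T_prog_) with and without the histone demethylase UTX. They were chosen by name. All 3 were found among the 25860 genes listed for RNA-seq, and all 3 were among the 14459 genes whose level allowed a test. In ATAC-seq, 34 of the 23932 listed peaks carried one of these gene names, 23 of them *Bach2*, 4 *Bcl6* and 7 *Prdm1*.

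BACH2 is a basic leucine zipper protein that binds DNA together with small MAF proteins and, in T cells, occupies sites also used by AP-1 factors and holds back effector genes. BCL6 is a zinc finger repressor that recruits corepressors such as BCOR and is known for its roles in follicular helper and stem-like T cells. *Prdm1* encodes BLIMP-1, a zinc finger repressor that promotes terminal effector and plasma cell differentiation. BCL6 and BLIMP-1 are known to repress each other's genes, and BACH2 is known to repress *Prdm1*.

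All libraries came from pancreatic lymph node CD8+ T_prog_ cells of nonobese diabetic mice with the transgenic NY8.3 T cell receptor (*NOD-TCR 8.3*), which recognizes the β cell antigen IGRP. *UTX TCD* mice carried *UTX fl/fl* alleles and *Lck-Cre*, in which the T cell promoter of *Lck* drives Cre, whereas WT mice were UTX sufficient, and the methods give littermates that lacked Cre as the controls of the *UTX TCD* line. Both genotypes shared the receptor transgene and the NOD background, the sort gate is given as Ly108+CXCR6- in the labels and as Ly108+CD39- in the methods, and the age of these mice is not given in the sources used here. Each genotype had 3 libraries per assay, and these are taken here to come from separate mice. WT replicates 1, 2 and 3 held 146456724, 144503203 and 193568919 reads assigned to genes in RNA-seq, and the *UTX TCD* replicates 61512402, 175462433 and 187275082. The level of a gene is its normalized count, the reads divided by 1 size factor per library. One read was worth between 0.7372 and 2.2494 normalized counts, the latter in *UTX TCD* replicate 1.

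*Kdm6a*, the gene deleted, was read at 28365, 28949 and 29172 normalized counts in WT and at 24158, 24792 and 24579 in *UTX TCD* libraries. All 3 *UTX TCD* libraries were lower than all 3 WT libraries, but *Kdm6a* reads remained, and a count per gene cannot tell from which exons they came. WT replicate 2 stood apart from the other WT libraries. The chi-square per gene between libraries, in recovered reads, was 72.9 and 110 for the pairs with WT replicate 2 and 29.1 for WT replicates 1 and 3, and *Il7r*, the receptor chain for IL-7, singled out after its values were seen, was at 38077, 79127 and 37105 in WT. *UTX TCD* replicate 3 stood apart likewise, at 32.8 and 46.9 beside 12.6 for *UTX TCD* replicates 1 and 2. Where leaving out one of these or another library changed whether a named member or list gene was called, this is said beside the gene. For the markers *Cd4*, *Ms4a1*, *Jchain* and *Sdc1*, libraries left out are among the alternatives counted there. For the genes most alike to a member, *Il2rb* apart, calls with libraries left out are not given.

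The 6 markers of CD8 T cells summed to 882711, 838163 and 867333 normalized counts in WT and to 860322, 843986 and 766939 in *UTX TCD* libraries, with *Cd8a* the most abundant. Without *Cd8a* the sums were 610263, 568152 and 593329 in WT and 548795, 530986 and 495964 in *UTX TCD* libraries, lower in every *UTX TCD* library. With limma, edgeR and DESeq2 0 of the 6 were called, beside 17.6% of all tested genes with limma. At an unadjusted p under 0.05 from limma 1 was higher and 4 lower, beside 24.4% and 24.7% of all tested genes. The log2 fold changes were 0.13 for *Cd8a*, 0.17 for *Cd3e*, -0.17 for *Lck*, -0.28 for *Cd3d*, -0.37 for *Cd8b1* and -0.49 for *Cd2*, and *Cd2* was called lower without WT replicate 2, *UTX TCD* replicate 1 or *UTX TCD* replicate 2 (-0.58, -0.53 and -0.52). *Slamf6*, which encodes Ly108, was at 27732, 34096 and 23305 in WT and 36665, 30980 and 35425 in *UTX TCD* libraries, and *Entpd1*, which encodes CD39, did not exceed 29.6 in any library. *Cxcr6* was not near 0 in cells that the labels give as CXCR6-. It was at 12757, 9619 and 13724 in WT and 5286, 5994 and 5695 in *UTX TCD* libraries. The 3 CD4 T cell markers summed to at most 475 in any library and the 3 NK cell markers to at most 55.3. Of the CD4 T cell markers, 2 were called lower with limma, beside 7.05% of all tested genes. These were *Cd4* at -0.74 (adjusted p = 0.0384) and *Zbtb7b* at -1.85 (adjusted p = 0.0095) on the log2 scale. *Cd4* was at 90.1, 104 and 83.1 in WT and 58.5, 68.1 and 41.3 in *UTX TCD* libraries, and *Zbtb7b* at 68.4, 34.6 and 86.2 in WT and 9, 18.4 and 22.9 in *UTX TCD* libraries. The call of *Cd4* was lost in 9 of 17 alternatives (adjusted p from limma, edgeR or DESeq2 up to 0.101), DESeq2 called only 1 of these markers, and the most abundant of them, *Foxp3*, had a log2 fold change of 0.05 (adjusted p = 0.809 from limma). In these bulk samples, fewer cells of a type and less RNA per cell cannot be told apart.

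*Bach2* was counted at 25577, 27084 and 25427 in WT and at 40262, 40434 and 36921 in *UTX TCD* replicates 1, 2 and 3. Every *UTX TCD* library was higher than every WT library, and the distance between the groups was larger than the spread within either. The means were 26029 ± 916 (SD, n = 3) and 39205 ± 1980 (SD, n = 3). On the scale of log2(normalized count + 1), which understates changes of low genes, *Bach2* rose by 0.59 (SE 0.05, 95% interval 0.48 to 0.70, adjusted p = 3.03e-05 from limma). A call required a log2 fold change over 0.5 in size together with an adjusted p under 0.05. *Bach2* was the 1 member of 3 that was called, where 17.6% of the tested genes were called, 10.5% higher and 7.05% lower. Its rise was not extreme among them, since 11.7% of tested genes had a larger log2 fold change.

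*Bcl6* was counted at 4382, 4638 and 4396 in WT and at 4899, 5008 and 4996 in *UTX TCD* libraries. The groups did not overlap here either, but the lowest *UTX TCD* library was close to the highest WT library, replicate 2. The WT mean was 4472 ± 144 (SD, n = 3) and the *UTX TCD* mean 4968 ± 59.6 (SD, n = 3). The log2 fold change of *Bcl6* was estimated at 0.15 (SE 0.05, 95% interval 0.04 to 0.26, adjusted p = 0.0305 from limma), and this whole interval lay below the 0.5 that a call required. All *UTX TCD* libraries were above all WT libraries at *Bach2* and *Bcl6*, a pattern found in 25.8% of the tested genes. With single libraries left out, the adjusted p of *Bcl6* from limma was 0.119, 0.0178 and 0.0958 without WT replicates 1, 2 and 3 and 0.0608, 0.106 and 0.0513 without *UTX TCD* replicates 1, 2 and 3. Over all 18 alternatives, which include these, the adjusted p of *Bcl6* from limma, edgeR or DESeq2 ranged from 0.00906 to 0.119.

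*Prdm1*, the gene of the repressor opposed to the other members, was read at 91.1, 61.2 and 93.8 normalized counts in WT and at 128, 109 and 83.3 in *UTX TCD* libraries. *UTX TCD* replicate 3 lay below WT replicates 1 and 3, so the groups overlapped. These levels stood for 92, 62 and 123 reads in WT and for 57, 136 and 113 reads in *UTX TCD* libraries, so *Prdm1* was read in every library but thinly. The means were 82 ± 18.1 (SD, n = 3) and 107 ± 22.5 (SD, n = 3), and the estimated log2 fold change of 0.38 (SE 0.25, 95% interval -0.18 to 0.94, adjusted p = 0.254 from limma) was not distinguishable from the replicate spread. The interval holds both a lower level and a rise larger than that of *Bach2*. The estimate moved both ways with single libraries left out. It was 0.18 without WT replicate 2, the lowest library, 0.24 without *UTX TCD* replicate 1, the highest and shallowest one, and 0.35 without *UTX TCD* replicate 2, but 0.47, 0.49 and 0.55 without WT replicate 1, WT replicate 3 and *UTX TCD* replicate 3, with an adjusted p from limma of at least 0.116. The spread between replicates relative to the mean was 22.1% in WT and 21.1% in *UTX TCD* cells for *Prdm1*, against 3.52% and 5.05% for *Bach2* and 3.22% and 1.2% for *Bcl6*.

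**Figure D1:**
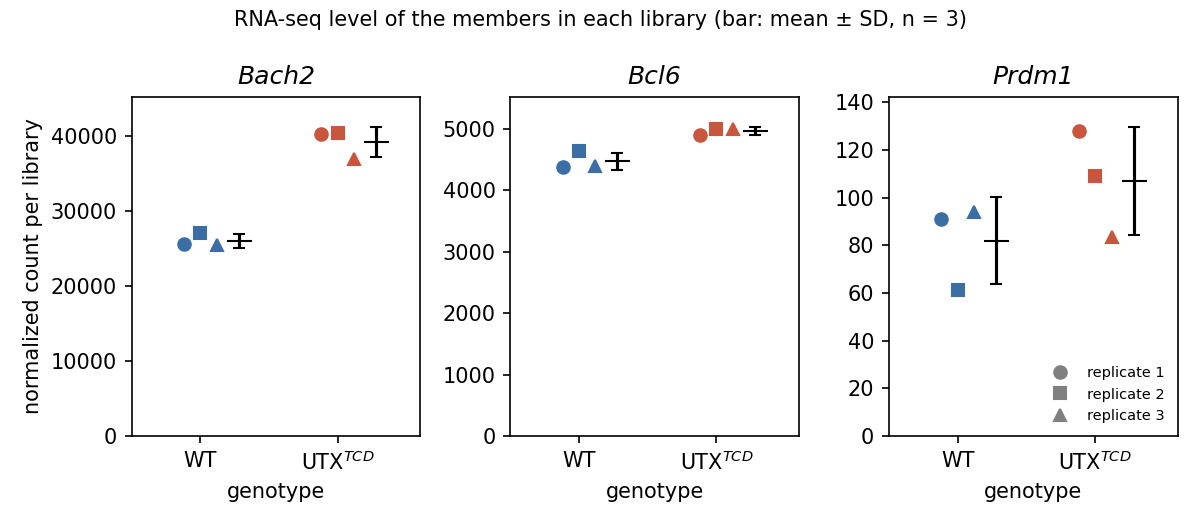
RNA-seq normalized counts of *Bach2*, *Bcl6* and *Prdm1* (y axis, from 0 and on its own scale per gene) in each WT and *UTX TCD* library (points, shaped by replicate number), with the mean ± SD of 3 libraries beside them. The *UTX TCD* libraries of *Bach2* sit between 36921 and 40434, above all WT libraries, those of *Bcl6* between 4899 and 5008, also above, and those of *Prdm1* between 83.3 and 128, overlapping WT.

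Levels of different genes were compared per kb of merged RefSeq exons of curated transcripts. In WT the level per kb was 3065 ± 108 (SD, n = 3) for *Bach2*, 891 ± 28.7 for *Bcl6* and 15.8 ± 3.48 for *Prdm1*. In *UTX TCD* cells it was 4616 ± 233 (SD, n = 3), 989 ± 11.9 and 20.5 ± 4.33. The order was therefore *Bach2*, *Bcl6*, *Prdm1* in every library, and no neighbours in it overlapped. Among 13434 tested genes with such a length, whose median was 1075 per kb in WT, *Bach2* moved from percentile 74.8 in WT to 84.0 in *UTX TCD* cells, *Bcl6* from 46.6 to 48.6 and *Prdm1* from 11.0 to 11.7. The upper part of this order depends on the exon model: with predicted RefSeq transcripts included, *Bach2* has 38951 exon bases in place of 8493, and mean levels per kb were 668 for *Bach2* and 677 for *Bcl6* in WT, but 1007 and 752 in *UTX TCD* cells.

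Ratios within a library do not depend on its size factor. *Bach2* reads exceeded *Bcl6* reads 5.84-, 5.84- and 5.78-fold in WT and 8.22-, 8.07- and 7.39-fold in *UTX TCD* libraries, not corrected for gene length. This ratio was higher in every *UTX TCD* library, with a difference of 0.44 on the log2 scale (two-sided exact permutation p = 0.10, the smallest that 3 against 3 allows). *Bach2* over *Prdm1* was 281, 442 and 271 in WT and 314, 371 and 443 in *UTX TCD* libraries, and *Bcl6* over *Prdm1* was 48.1, 75.8 and 46.9 in WT and 38.2, 46 and 60 in *UTX TCD* libraries. Both of these ratios overlapped between the genotypes and, among WT libraries, were highest in replicate 2, where *Prdm1* was lowest. Their log2 differences were 0.21 and -0.23 (exact permutation p = 0.50 for each). With single libraries left out they ranged from 0.08 to 0.43 and from -0.40 to -0.01, so a shift in the balance of either gene against *Prdm1* could not be told from the spread between libraries.

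The 5 tested genes whose profiles over the 6 libraries lay closest to that of *Bach2*, by root mean square distance of mean-centred log2 values, were *Il2rb*, *Glcci1*, *Sbsn*, *Stk3* and *Rab23*, at distances from 0.027 to 0.034. *Il2rb*, the β chain of the receptors for IL-2 and IL-15, had mean counts of 38957 in WT and 60166 in *UTX TCD* cells. Among those closest to *Bcl6* were *BC005537*, *Atpaf2*, *Mfsd11* and *Trmt2a*, at 0.007 to 0.012. Closest to *Prdm1* were *4933417D19Rik*, *Dact1*, *Gm20098*, *Gm4925* and *E230025N22Rik*, at larger distances of 0.084 to 0.104 and all at mean counts of at most 141.

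Counts of calls in the lists below are to be read beside the 17.6% of all tested genes that were called, and counts at an unadjusted p under 0.05 from limma beside the 24.4% of all tested genes that were higher and the 24.7% that were lower at it. The list of BACH2 partners and relatives held 8 tested genes, 7 of them partners or relatives and 1, *Hmox1*, a target. It gave 0 calls with limma, edgeR and DESeq2, while 3 of the 8, *Hmox1* among them, were higher and 2 lower at an unadjusted p under 0.05 from limma. The median log2 fold change of this list was 0.09 beside 0.00 over all tested genes. The most abundant were *Nfe2l1* and *Nfe2l2*, activators of the same leucine zipper family, and *Bach1*, the closest relative of *Bach2*. *Bach1* was counted at 6943, 6994 and 7454 in WT and 5225, 5723 and 5750 in *UTX TCD* libraries. The groups of *Bach1* did not overlap, but its log2 fold change of -0.36 (adjusted p = 0.000931 from limma) was short of the limit, as was that of *Nfe2l2* at -0.26, and *Nfe2l1* stood at 0.00. *Hmox1*, the heme oxygenase gene repressed by BACH proteins, singled out after its values were seen, was at 37.6, 45.4 and 32 in WT and 56.2, 58.5 and 65.6 in *UTX TCD* libraries. Its log2 fold change was 0.65 (adjusted p = 0.0597 from limma) with all libraries. It was called without WT replicate 2, at 0.77 (adjusted p = 0.0445), and when all libraries were scaled to an equal sum, at 0.71 (adjusted p = 0.0459), and over all alternatives the adjusted p ranged up to 0.178.

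Of the 14 corepressors and relatives of BCL6, 1 fell and 0 rose with limma, edgeR and DESeq2 alike, 2 were higher and 4 lower at an unadjusted p under 0.05 from limma, and the median was 0.03. *Mta3*, a subunit of the NuRD complex that BCL6 recruits in B cells, fell from 21814, 21432 and 21652 in WT to 14405, 14033 and 12700 in *UTX TCD* libraries, by 0.66 on the log2 scale (SE 0.05, adjusted p = 2.14e-05 from limma). The *Mta3* groups lay far apart compared with their spread. Among the most abundant corepressor genes, *Ncor1* and *Bcor* had log2 fold changes of 0.05 and 0.27 and were not called. Of the 9 tested relatives and cofactors of BLIMP-1, 1 fell and 0 rose by each of these tools, 1 was higher and 3 lower at an unadjusted p under 0.05 from limma, and the median was -0.04. The gene that fell was *Tle1*, a Groucho corepressor, at 1238, 1313 and 1316 in WT and 1012, 890 and 809 in *UTX TCD* libraries. Its log2 fold change of -0.52 (adjusted p = 0.00253 from limma) was at the limit, and without *UTX TCD* replicate 3 it was -0.44 and no longer called, as when all libraries were scaled to the same sum (-0.46). The most abundant of this list, *Tle3*, *Ehmt2* and *Tle4*, had log2 fold changes of -0.04, 0.22 and -0.19.

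Among 12 genes known to induce *Prdm1*, 2 rose and 2 fell, beside 17.6% of all tested genes called. At an unadjusted p under 0.05 from limma 4 were higher and 2 lower, and the median was 0.09. *Il2rb* rose from 38451, 41256 and 37165 in WT to 62265, 61468 and 56764 in *UTX TCD* libraries, by 0.63 on the log2 scale (SE 0.05, adjusted p = 3.65e-05 from limma). *Il12rb1* and *Il12rb2*, which encode both chains of the IL-12 receptor, fell, with log2 fold changes of -1.27 (adjusted p = 2.7e-05 from limma) and -0.96 (adjusted p = 0.000156). Cytokine receptors upstream of *Prdm1* thus moved in both directions. *Irf4*, a transcription factor induced by receptor signals, was at 2046, 3366 and 2097 in WT and 3541, 3440 and 4267 in *UTX TCD* libraries, and WT replicate 2 was close to the *UTX TCD* libraries. Its log2 fold change was 0.62 (adjusted p = 0.0212 from limma). The call of *Irf4* was lost without WT replicate 1 (0.49, adjusted p = 0.074), without WT replicate 3 (0.51, adjusted p = 0.0662), without *UTX TCD* replicate 3 (0.52, adjusted p = 0.0731) and with DESeq2 (0.59, adjusted p = 0.0658), and over all alternatives its adjusted p ranged from 0.000499 to 0.074.

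Genes known to be repressed by each member were counted next. Of 11 tested genes repressed by BACH2 in T cells, 3 rose and 3 fell, beside 17.6% of all tested genes called. At an unadjusted p under 0.05 from limma 4 were higher and 4 lower, and the median log2 fold change was -0.29, below the 0.00 of all tested genes. *Ccr4*, a chemokine receptor gene, went from 682, 682 and 731 in WT to 171, 162 and 98 in *UTX TCD* libraries and fell by 2.31 (SE 0.20, adjusted p = 3.82e-05 from limma). This was the largest change of the list, with no overlap. The aryl hydrocarbon receptor gene *Ahr* fell by 0.79 (adjusted p = 0.00531 from limma) and the leucine zipper gene *Nfil3* by 0.72 (adjusted p = 0.00763). In the other direction, *Irf4* rose as given above, the nuclear receptor gene *Rora* rose by 0.60 (adjusted p = 0.00389 from limma) and the stress response gene *Gadd45g* by 0.73 (adjusted p = 0.0226). *Gadd45g* was not called without WT replicate 1 (0.52, adjusted p = 0.0678 from limma), WT replicate 3 (0.73, adjusted p = 0.0503) or *UTX TCD* replicate 3 (0.58, adjusted p = 0.074), within a range of 0.00142 to 0.074 over all alternatives. *Gzmb*, which encodes granzyme B and was singled out after its values were seen, had a log2 fold change of -0.47 (adjusted p = 0.0217 from limma) and was called at -0.61 without WT replicate 2.

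Of 11 tested genes repressed by BCL6 in T cells, 3 rose and 0 fell by limma, edgeR and DESeq2 alike, 5 were higher and 4 lower at an unadjusted p under 0.05 from limma, and the median was 0.01. *Gpr183*, which encodes the oxysterol receptor that guides cells in lymphoid tissue, rose from 1114, 1377 and 1113 in WT to 2537, 2457 and 3911 in *UTX TCD* libraries, by 1.28 on the log2 scale (SE 0.17, adjusted p = 0.000412 from limma). The other genes of this list that rose were *Rora* and *Tbx21*, the T-bet gene, which rose by 1.16 (adjusted p = 0.00057). Of the 8 genes not called, 6 had an adjusted p under 0.05 with a smaller change, beside 3349 of the 11921 tested genes not called. These 6, named after their values were seen, were *Gata3* and *Runx3*, at log2 fold changes of 0.24 and 0.12, and *Gzmb*, *Klf2*, *S1pr1* and *Selplg*, at -0.47, -0.46, -0.41 and -0.36. Without WT replicate 2, *Gzmb* was called lower, as given above.

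Of 13 tested genes repressed by BLIMP-1 in lymphocytes, 2 rose and 1 fell, beside 17.6% of all tested genes called. At an unadjusted p under 0.05 from limma 3 were higher and 3 lower, and the median was -0.08. *Cxcr5*, the homing receptor of follicular cells, rose from 2658, 2788 and 2298 in WT to 6429, 6344 and 8593 in *UTX TCD* libraries, by 1.45 on the log2 scale (SE 0.12, adjusted p = 2.63e-05 from limma). *Tbx21* was the other gene that rose, and *Fos*, an AP-1 subunit, fell by 0.59 (adjusted p = 0.000914). The progenitor genes *Tcf7* and *Ccr7* of this list, named after their values were seen, had log2 fold changes of -0.07 and -0.08 and overlapped between genotypes. *Id3* likewise had 0.35 (adjusted p = 0.211 from limma), but was called at 0.57 (adjusted p = 0.0359, with values up to 0.566 under the other alternatives) without WT replicate 2, where it was at 2918 against 1755 and 1933 in the other WT libraries.

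B cells and plasma cells use these repressors as well, so their markers are given beside the members. Counts of markers called with limma are to be read beside the 10.5% of all tested genes called higher and the 7.05% called lower. The 8 B cell markers summed to 114691, 97241 and 106671 normalized counts in WT and 96344, 90999 and 82860 in *UTX TCD* libraries, nearly all of it *Ighm*. Without *Ighm* the sums were 3043, 2549 and 2890 in WT and 1505, 1345 and 1578 in *UTX TCD* libraries. Of these, *Cd79b* made up 2502, 1930 and 2465 in WT and 648, 633 and 470 in *UTX TCD* libraries, and without *Cd79b* as well the sums were 541, 619 and 425 in WT and 857, 713 and 1108 in *UTX TCD* libraries. The defining markers *Ms4a1* and *Pax5* did not exceed 73 in any library. Of the 7 tested B cell markers, *Ms4a1* and *Cd22* rose and *Cd79b* fell, so the B cell markers did not move alike, and the call of *Ms4a1* was lost in 5 of 16 alternatives (adjusted p from limma, edgeR or DESeq2 up to 0.119). The 6 plasma cell markers summed to 112, 87.9 and 61.8 in WT and 157, 136 and 222 in *UTX TCD* libraries, with *Derl3* the most abundant in the mean of all libraries, though at 52.3 below *Jchain*, at 89.2, in *UTX TCD* replicate 3. Of the 4 plasma cell markers tested, *Jchain* and *Sdc1* were called higher with limma, at no more than 89.2 and 23.2 normalized counts in any library, and 1 of the 4 with DESeq2. These calls were lost in 7 and 6 of 16 alternatives (adjusted p from limma, edgeR or DESeq2 up to 0.247 and 0.178). *Derl3*, at 0.72 on the log2 scale (adjusted p = 0.0776 from limma), was called higher without *UTX TCD* replicate 3, at 0.92 (adjusted p = 0.0401). The part of B cell and plasma cell RNA in the results for the members was not tested. *Cd68* made up most of the sum of 7 myeloid markers, which was at most 1057. It was at 685, 667 and 544 in WT and 972, 703 and 896 in *UTX TCD* libraries. This log2 fold change of 0.43 (adjusted p = 0.0377 from limma) was short of the limit, and *Cd68* was called higher at 0.57 without *UTX TCD* replicate 2. *Lyz2* had 0.07. Of the 5 myeloid markers tested, 2 were called lower with limma, *Itgax* (adjusted p = 0.00103), at 48.5, 24.7 and 55.7 in WT and 0, 0 and 4.42 in *UTX TCD* libraries, and *Csf1r* (adjusted p = 0.00496), at 27.7, 25.7 and 19.1 in WT and 4.5, 5.61 and 8.11 in *UTX TCD* libraries. The part of myeloid and CD4 T cell RNA in the results for the members was not tested. *Ccr9*, a gene of CD8 T cells too, made up nearly all of the sum of the 3 plasmacytoid dendritic cell markers, which was at most 12.8 without it.

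ATAC-seq maps open chromatin by the places where a transposase can insert sequencing adapters. For each peak the values used are the deposited group means per genotype, log2 of normalized reads in the peak, so a difference of these means carries no replicate error and was not tested here. Only peaks with an FDR under 0.05 in the comparison made by the authors are in the list, and unlisted peaks were not analysed here. All 34 peaks of the members were higher in *UTX TCD* cells, where 68.8% of all listed peaks were higher. For *Bach2*, 12 of 23 peaks were higher by over 0.5, as were 1 of 4 for *Bcl6* and 5 of 7 for *Prdm1*, beside 49.3% of all listed peaks and 71.7% of the listed peaks that were higher. Runs of peaks with one direction were not particular to these genes. Of 12 genes with at least 23 listed peaks, 4 had all of them higher, as had 34.2% of 1630 genes with at least 4 peaks and 19.3% of 472 genes with at least 7.

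The *Bach2* peaks covered a stretch of 265.0 kb at chr4:32216979-32482013 (mm10). The gene lies on the plus strand, and its curated RefSeq transcript starts at 32417435, while predicted transcripts start as far upstream as 32238413. By the deposited annotation, 19 of the 23 peaks were intergenic and 4 intronic. When predicted transcripts were counted, 17 of these 19 lay inside them, and the 2 left over were upstream of every *Bach2* transcript. The differences of the group means ran from 0.30 to 1.66 with a median of 0.58, beside 0.69 for all listed peaks that were higher. The strongest listed peaks of the locus lay between the distal and the curated start, such as chr4:32343760-32344160 with a group mean of 11.94 in WT and 12.33 in *UTX TCD* cells and chr4:32258137-32258537 with 11.80 and 12.17.

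Among the listed *Bach2* peaks, larger differences fell on those with lower WT means. Of the 4 *Bach2* peaks with a difference over 1, 3 are described here. The peak chr4:32432671-32433071, in an intron of the curated transcript, had a group mean of 5.06 in WT and 6.38 in *UTX TCD* cells. The peaks chr4:32313743-32314143 and chr4:32326290-32326690, upstream of the curated start, had differences of 1.31 and 1.14. The 12 *Bach2* peaks with a difference over 0.5 had WT means from 5.06 to 9.81, and the other 11 from 8.55 to 11.94. Across the 23 peaks, which share their libraries, Spearman's rho of WT mean and difference was -0.83, and it was -0.72 across all 16466 listed peaks that were higher. The WT mean is itself subtracted in the difference, which by construction pulls rho towards negative values. Since the list is also limited by FDR, weak peaks with small differences may be missing from both values. Both values of rho therefore only describe the listed peaks.

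Only 1 listed *Bach2* peak held an annotated start. The peak at chr4:32238730-32239130 overlapped the first exon of predicted RefSeq transcripts, and 3 of the 7 *Bach2* transcripts of GENCODE begin in it, at 32238804, 32238950 and 32239077. Its group means were 10.80 and 11.16, a difference of 0.36, one of the smaller ones of the locus. No listed peak covered the curated start at 32417435. Beyond the last *Bach2* peak, 3 peaks inside the *Bach2* span carry the name of the antisense gene *Bach2os*, with differences of 1.49, 1.11 and 0.29, and a peak just past the 3′ end named for *Gja10* had 0.68. All 27 listed peaks within 50 kb of the *Bach2* span were therefore higher in *UTX TCD* cells.

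*Bcl6* lies on the minus strand, and its 4 peaks spanned 32.4 kb at chr16:23984760-24017172. Inside an intron of the gene, chr16:23984760-23985160 had group means of 10.75 in WT and 11.11 in *UTX TCD* cells and chr16:23986283-23986683 had 9.16 and 9.54. The other peaks were upstream of the start at 23988852, chr16:23991172-23991572 with 9.45 and 9.86 and chr16:24016772-24017172 with 6.87 and 7.70. The difference of 0.83 at the last of these, the weakest and most distal one, was the largest, and the median was 0.40. Another peak within 50 kb, named for *Rtp2*, was higher by 0.67.

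*Prdm1*, also on the minus strand, had 7 peaks over 129.7 kb at chr10:44409961-44539638. Of these, 2 lay past the 3′ end of the gene, and 1, at chr10:44448168-44448568, was in an intron of the curated transcript and overlapped an exon of a predicted one, with group means of 10.41 in WT and 10.90 in *UTX TCD* cells. The remaining 4 lay upstream of the curated start at 44458748, and chr10:44483109-44483509 and chr10:44526967-44527367 among them were inside longer predicted transcripts. Differences ran from 0.33 to 0.76 with a median of 0.54, and the largest belonged to chr10:44539238-44539638, with 6.09 and 6.85. The *Prdm1* peaks were thus higher in the group means in the same direction as those of *Bach2* and *Bcl6*, while *Prdm1* RNA was not distinguishable between genotypes. The difference between the genes in this respect was not tested.

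**Figure D2:**
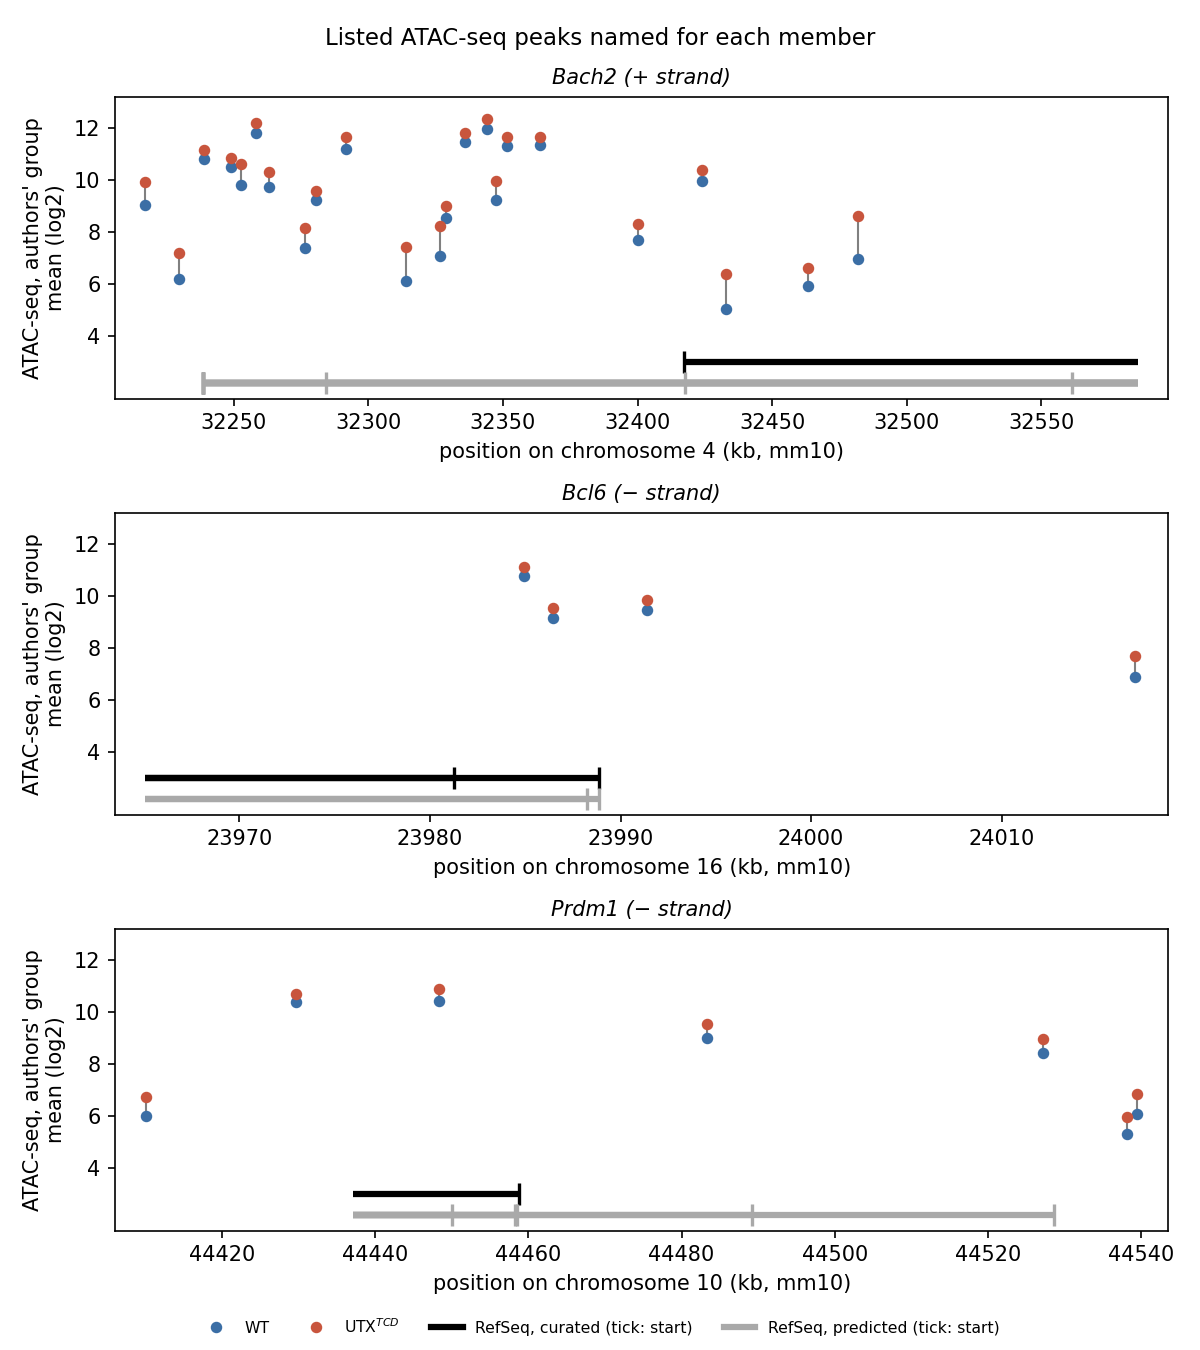
Deposited ATAC-seq group means (y axis, log2) of the 23 *Bach2*, 4 *Bcl6* and 7 *Prdm1* peaks by position (x axis, kb of mm10), with WT in blue, *UTX TCD* in red, a grey line joining both means of a peak, and RefSeq transcripts below with their starts as ticks. The red point is above the blue one at all 34 peaks, and the *Bach2* peaks lie mostly between the distal predicted start and the curated start.

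The bases of the peaks and promoters were searched on both strands in GRCm38.p6, the build of mm10 and a C57BL/6J sequence, so NOD variants are not shown. TGTGGT, a RUNX motif, was in 10 of the 34 peaks (29.4%), beside 39.7% of all listed peaks and 35.5% of those that were higher. The TCF/LEF motif CTTTGA was in 10 peaks too (29.4%), beside 30.6% of all. AGNGAAAG, a BLIMP-1 motif, was in 7 peaks (20.6%, beside 12.9%), 5 of them *Bach2* peaks, 1 a *Bcl6* peak and 1 a *Prdm1* peak. The STAT motif TTCNNNGAA was in 7 peaks (20.6%, beside 11.9%), and TTCCTNGAA, a BCL6 motif that is a special case of the STAT letters, was in 3 (8.8%, beside 2.3%), of which 1 was a *Bach2* and 2 were *Prdm1* peaks. TGANTCA, the AP-1 motif, was in 4 (11.8%, beside 12.8%), and TGANTCAGC, its extension to a MAF half-site, was in 0 of 34, beside 2.0% of all listed peaks. With counts this small, these shares describe the sequences only.

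RefSeq promoters, 300 bases around each start, were given for all 3 members, with 2 for *Bcl6*. The *Bach2* promoter at chr4:32417185-32417484 held CTTTGA, TTCNNNGAA and AGNGAAAG, which are in 16.0%, 8.3% and 8.6% of the 32851 promoters. The *Prdm1* promoter at chr10:44458699-44458998 held TGANTCA, found in 7.8% of promoters. Of the *Bcl6* promoters, chr16:23981234-23981533 held 3 matches to TTCNNNGAA, 1 of them also to TTCCTNGAA (1.6% of promoters), and 1 to CTTTGA, and chr16:23988803-23989102 held 1 match to TTCNNNGAA.

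The middle 300 bases of 3 peaks are shown, plus strand of GRCm38.p6, with matches to the motifs above in capitals: the *Bach2* peak at the distal start, since 3 transcripts begin in it, and the peaks with the largest difference for *Bcl6* and *Prdm1*. The first has 80.8% G and C over its 401 bases and no match, and the *Bcl6* peak has none. The *Prdm1* peak holds TTCTAGGAA, which matches both TTCNNNGAA and, on the other strand, TTCCTNGAA, as well as TGANTCA and CTTTGA.
Bach2 distal start, chr4:32238780-32239079: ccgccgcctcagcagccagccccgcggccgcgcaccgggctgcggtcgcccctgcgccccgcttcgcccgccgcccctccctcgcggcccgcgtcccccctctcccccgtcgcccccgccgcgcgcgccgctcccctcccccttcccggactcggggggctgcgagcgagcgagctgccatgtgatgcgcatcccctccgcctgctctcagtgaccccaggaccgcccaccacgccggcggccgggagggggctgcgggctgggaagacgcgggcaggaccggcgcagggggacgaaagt
Bcl6 upstream, chr16:24016822-24017121: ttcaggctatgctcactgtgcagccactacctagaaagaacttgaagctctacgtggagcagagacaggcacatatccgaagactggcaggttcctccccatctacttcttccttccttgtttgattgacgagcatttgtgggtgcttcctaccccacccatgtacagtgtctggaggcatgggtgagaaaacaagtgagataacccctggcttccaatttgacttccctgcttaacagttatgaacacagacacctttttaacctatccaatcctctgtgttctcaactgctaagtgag
Prdm1 upstream, chr10:44539288-44539587: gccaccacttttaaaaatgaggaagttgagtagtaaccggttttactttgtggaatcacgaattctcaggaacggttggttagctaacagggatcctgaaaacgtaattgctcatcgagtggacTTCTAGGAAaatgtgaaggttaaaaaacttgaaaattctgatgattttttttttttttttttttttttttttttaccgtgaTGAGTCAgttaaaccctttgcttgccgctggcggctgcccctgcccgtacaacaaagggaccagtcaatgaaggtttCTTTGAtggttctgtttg

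Genes within 500 kb of each member were compared with it. Counts of calls among them are to be read beside the 10.5% of all tested genes called higher and the 7.05% called lower with limma. At an unadjusted p under 0.05 from limma these shares were 24.4% and 24.7%. Around *Bach2*, 10 neighbours were tested, of which 1 fell and 0 rose with limma, edgeR and DESeq2 alike, and 0 were higher and 3 lower at an unadjusted p under 0.05 from limma. The gene that fell was *Gabrr2*, a GABA receptor subunit gene, at 1254, 1114 and 1054 in WT and 598, 569 and 529 in *UTX TCD* libraries, with -1.01 on the log2 scale (SE 0.10, adjusted p = 6.89e-05 from limma). Without WT replicate 2, *4933421O10Rik*, named after its values were seen, was called lower as well, at -0.50 (adjusted p = 0.0146 from limma), where it had -0.43 (adjusted p = 0.0192) with all libraries. The most abundant neighbours, *Mdn1*, *Map3k7* and *Ube2j1*, had log2 fold changes of 0.15, -0.10 and -0.05. *Bach2os*, transcribed against *Bach2* and singled out after its values were seen, was at 272, 188 and 136 in WT and 382, 229 and 226 in *UTX TCD* libraries. Its groups overlapped, at a log2 fold change of 0.50 (adjusted p = 0.189 from limma). With single libraries left out it ranged from 0.25 without *UTX TCD* replicate 1 to 0.76 without WT replicate 1 and was not called (adjusted p from 0.0683 to 0.505). The strand setting of the counting is not given in the sources used here. Where the genes overlap, it therefore cannot be told whether reads of *Bach2* were counted for *Bach2os* or the reverse.

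Calls near *Bcl6* and *Prdm1* are likewise to be read beside the 10.5% of all tested genes called higher with limma. Of the 3 tested neighbours of *Bcl6*, 2 rose. *Lpp*, a focal adhesion gene next to *Bcl6*, rose from 8864, 8010 and 8781 in WT to 12808, 13376 and 12894 in *UTX TCD* libraries, by 0.61 on the log2 scale (SE 0.05, adjusted p = 2.78e-05 from limma), and *Rtp4*, an interferon-induced gene, rose by 0.99 (adjusted p = 8.35e-05). Both moved further than *Bcl6* itself, and *Lppos*, antisense to *Lpp*, had 0.03. Near *Prdm1*, 1 of 4 tested neighbours rose, *Crybg1*, from 14049, 16012 and 14543 in WT to 23283, 24908 and 24086 in *UTX TCD* libraries, by 0.70 on the log2 scale (SE 0.06, adjusted p = 2.21e-05 from limma). The autophagy gene *Atg5*, between *Crybg1* and *Prdm1*, had -0.37 (adjusted p = 0.00184), short of the limit, and *Rtn4ip1* had 0.14. How these neighbours relate to the members was not tested.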

How the data were processed

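RNA-seq and ATAC-seq of 3 libraries per genotype were analysed. The authors aligned RNA-seq reads to mm10 with HISAT2 2.2.1, counted them with featureCounts and deposited DESeq2-normalized counts per gene, a signal of reads divided by 1 size factor per library. For ATAC-seq (Cutadapt, Bowtie2, Picard, MACS2, DiffBind) the authors deposited log2 concentrations as means per genotype. Their fold changes, p-values and FDRs, also deposited, were not used, except that every listed FDR was checked to be below 0.05. A transposase shift is not stated in the sources used here.

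limma 3.58.1 (R 4.3.3, trend) was run for genes whose normalized counts averaged 10 or more, on log2(normalized count + 1), with Benjamini-Hochberg adjustment over 14459 genes, after a test on simulated data. Dividing by the smallest value of a library gave whole reads for 100% of values (tolerance 0.01). On those reads edgeR 4.0.16 called 2541 genes and DESeq2 1.42.0 called 2422, against 2538 with limma. Depth ranged from 61512402 to 193568919 reads.

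Members and gene lists were chosen with earlier results of these data known. Named genes are the members, *Kdm6a*, every called gene of a list, the 3 most abundant tested genes of lists with fewer than 3 called, and the 5 most alike. Beyond this rule, markers of cell types and of the sort are named, genes that peaks are named for, and genes singled out after their values were seen, which the report marks as such. Certain genes and sequences within these choices are not reported here. Sequences and promoters came from RefSeq GRCm38.p6, transcript starts also from GENCODE. Alternatives varied the pseudocount, filter, scaling, test, replicate block, depth, fold limits, libraries and peak limits.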

Additional observations from a re-analysis of the deposited data

How the results depend on the processing

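Over the 18 alternatives of the RNA comparison, *Bach2* stayed called, with log2 fold changes from 0.57 to 0.65, and *Prdm1* stayed not called, from 0.18 to 0.55. *Bcl6* ranged from 0.13 to 0.21. It passed with no fold limit, at 0.15 (adjusted p = 0.0305 from limma), by the construction of that setting, which also raised the calls over all genes to 2924 higher and 2963 lower. Scaling each library to the same sum moved the median of all tested genes to 0.06. Of the *Bach2* peaks, 12 remained with a difference of the group means over 0.5 and 4 over 1. For *Bcl6* these counts were 1 and 0. For *Prdm1* none, that is 0, differed by over 1.

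Same-numbered WT and *UTX TCD* libraries correlated at 0.305, -0.200 and 0.090 in their deviations from the group means. Not every library correlated best with its own number. The sample titles link these libraries by number only, and with 3 libraries per genotype these correlations cannot decide whether they were paired. With the replicate block, 1484 genes were called higher and 990 lower, the members kept their side of the limits (adjusted p from limma 0.000155 for *Bach2*, 0.0421 for *Bcl6* and 0.268 for *Prdm1*), and *Bach2os* was called at 0.50 (adjusted p = 0.0404 from limma, and up to 0.505 under other alternatives). A block cannot move the differences of the ratios. Their exact permutation p became 0.75 for both ratios to *Prdm1* and 0.25, the smallest that 3 pairs allow, for *Bach2* over *Bcl6*. With all libraries drawn down to the smallest, the *Prdm1* log2 fold change was 0.27 (adjusted p = 0.585 from limma, in a range of 0.116 to 0.585 over the alternatives).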
